A study of Mus musculus with 6 samples.

Results

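Around Ephb2 on mouse chromosome 4, 35 genes were followed across cultured spermatogonial stem cells that had or had not received a guide RNA against Ephb2. They were chosen by position and by summed counts: each lies on chromosome 4, its span overlaps the stretch from 1 Mb below to 1 Mb above Ephb2 (chr4:135647539-137835988, GRCm38), and it has at least 20 counts over the 6 libraries together. Ephb2 itself and Id3 were left out, and the 35 genes are out of 69 further gene names in the window and 41053 in the count files, of which 17575 reached the same minimum. Neither the position nor the summed count looks at the difference between the groups, which is the quantity tested below.

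The 2 groups were 3 lines labelled Ephb2-KO and 3 lines labelled WT, all from adult mouse spermatogonial stem cells grown in supplemented StemPro-34 medium. All had been electroporated with a plasmid carrying a GFP reporter, which the Ephb2-KO lines received with an sgRNA to Ephb2 and the WT lines without one. Fluorescent cells were then sorted and subcloned, so each line is a subclone, and the labels do not name the nuclease or the mutation in each line. The passage was 20 for lines 1 and 2 and 18 for line 3, in either group. The labels do not say whether lines with 1 number share a parent culture, and p-values measure only the spread between these lines.

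Ephb2 encodes a receptor tyrosine kinase that binds B-type ephrins on neighbouring cells and passes signals in both cells. Spermatogonial stem cells are the germline stem cells of the testis, which renew themselves and give rise to sperm. Genes that lie side by side can share regulatory elements and chromatin domains, and repair of a cut made at a guide's target can reach into flanking sequence. The comparison therefore asks whether the neighbours of the target locus shift in the lines labelled Ephb2-KO, pair by pair.

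The libraries held 33140336, 23199572 and 21772404 counts in Ephb2-KO libraries 1, 2 and 3 and 34047758, 26218662 and 24928648 in WT libraries 1, 2 and 3. Ephb2 itself was not called lower in the lines labelled Ephb2-KO when the replicate number was a block in the edgeR fit. Its blocked log2 fold change was 0.14 (SE 0.27, interval -0.47 to 0.75, adjusted p = 0.92). Without the block it was 0.18 (SE 0.50). That fit called 0 of all tested genes, so the lack of a call there says nothing about Ephb2. Ephb2 had 37.1, 16.5 and 13.4 CPM in Ephb2-KO libraries 1, 2 and 3. In WT libraries 1, 2 and 3 it had 21.3, 27.1 and 10.8 CPM. The Ephb2-KO library was thus the higher one in pairs 1 and 3 and the lower one in pair 2. The labels do not give the mutation in each line, and directions below are those between libraries labelled Ephb2-KO and WT. All 10 spermatogonial markers examined were detected. Their summed CPM (counts scaled to a common library size) was 1439 to 3051 in the Ephb2-KO libraries and 1645 to 2996 in the WT libraries. This sum in the Ephb2-KO library was 1.28, 0.90 and 0.87 times that in the WT library of pairs 1, 2 and 3. Markers of fibroblasts or stromal feeder cells were also abundant: the 10 together held 4751, 5271 and 19874 CPM in Ephb2-KO libraries 1, 2 and 3, against 3005, 4160 and 16853 CPM in WT libraries 1, 2 and 3. The sum was therefore 1.58, 1.27 and 1.18 times as high in the Ephb2-KO library of pairs 1, 2 and 3. In bulk RNA, fewer cells of a type and less RNA per cell cannot be told apart.

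None of the 31 neighbours with enough counts passed the test at an adjusted p of 0.05, by edgeR's quasi-likelihood test with Benjamini-Hochberg adjustment over all 15263 genes tested. With the replicate number as a block, which compares each Ephb2-KO library with the WT library of the same number, 0 of 31 were called, beside 4 genes (0.0262%) of all those tested. Without the block, 0% of all tested genes were called, so the 0 of 31 neighbours in that fit says nothing about them. DESeq2 without the block, run over 24658 genes, called 0 of all 35 neighbours and 3 genes in all. The lowest adjusted p of any neighbour was 0.741 with the block and 1.0 without it. At an unadjusted p under 0.05, 0 of 31 neighbours stood out without the block, against 0.21% of all tested genes. With the block, 3 (9.68%) did so upward, namely Tceb3, Asap3 and Tcea3, beside 4.38% of all tested genes, and 0 did so downward, beside 2.09%.

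Pair by pair, the balance of the neighbours differed. Their median log2 difference between Ephb2-KO and WT was 0.12, -0.03 and 0.0079 in pairs 1, 2 and 3, beside -0.0011, 0.0023 and 0.06 for all tested genes. Above 0 were 22, 15 and 16 of the 31 in those pairs (71.0%, 48.4% and 51.6%), beside 49.9%, 50.4% and 56.9% of all tested genes. The share of neighbours above 0 was thus over that of all genes in pair 1 and under it in pairs 2 and 3. The median of the fitted log2 fold changes was -0.0019 without the block and 0.01 with it, where all tested genes had 0.01 and 0.02, and the 955 tested chromosome 4 genes outside the window had 0.03 and 0.03. With the block, 17 of the 31 (54.8%) were above 0, near the 53.0% of all tested genes. Higher values in 3 of 3 pairs were seen for 6 of the 31 (19.4%), Lypla2, Tceb3, E2f2, Asap3, Tcea3 and Hspg2, where 15.6% of all tested genes did the same. None of the 31 was lower in 3 of 3 pairs, against 12.3% of all tested genes. Of the neighbours with too few counts for the test, Gm17388 was lower in 3 of 3 pairs (-0.03, -1.03 and -0.91). Its Ephb2-KO counts alone would not have met the minimum for membership. Wnt4, also too low to test, was higher in 3 of 3 (1.43, 1.19 and 0.51).

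**Figure D1:**
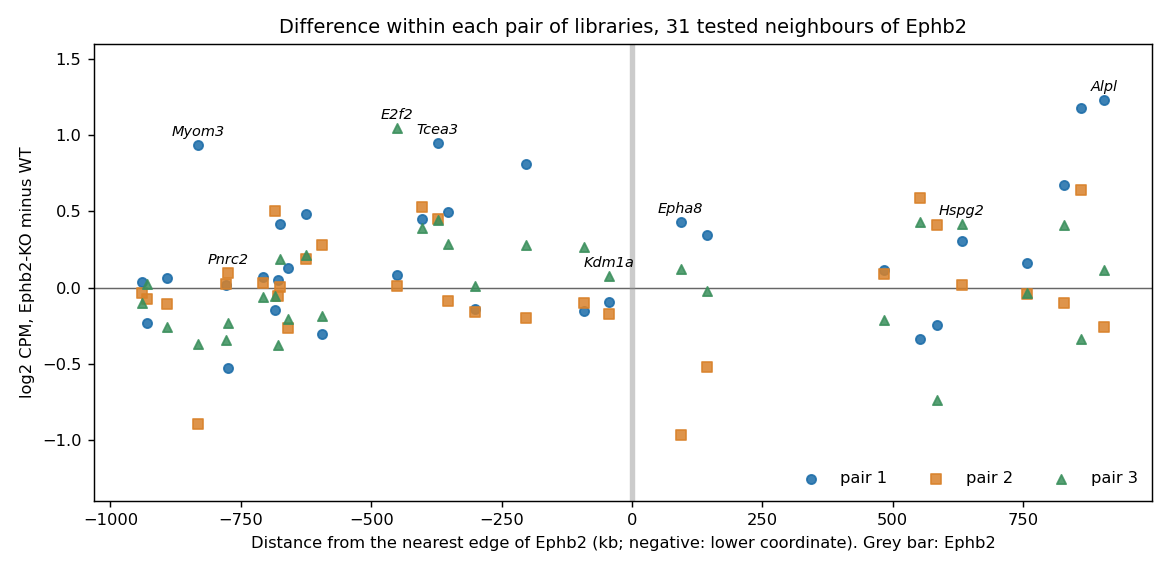
Each tested neighbour is plotted by its distance from the nearest edge of Ephb2 in kb (x axis, negative towards lower coordinates) and by the log2 CPM difference between Ephb2-KO and WT in pairs 1, 2 and 3 (y axis, 1 point per pair, with a prior count of 2). Points lie above and below 0 on either side of Ephb2, with pair medians of 0.12, -0.03 and 0.0079.

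Of the 6 tested genes that flank Ephb2 most closely, 3 on each side, 0 were called, and 5 had blocked log2 fold changes between -0.13 and 0.0026. On the lower side, Lactbl1 lies 8.4 kb away but had 2 counts in all, and the nearest tested neighbour is Kdm1a (chr4:136550540-136602723, minus strand, 44.8 kb away), which encodes the lysine demethylase LSD1, an enzyme that removes methyl groups from histone H3 lysine 4. Kdm1a had 364, 334 and 264 CPM in Ephb2-KO libraries 1, 2 and 3, against 389, 376 and 251 CPM in WT libraries 1, 2 and 3. The means were 321 ± 51.1 and 338 ± 76.0 CPM in the Ephb2-KO and WT lines (SD, n = 3 each), and the Ephb2-KO values lay inside the range of the WT values. Its log2 fold change was -0.08 (95% interval -0.66 to 0.51) without the block and -0.06 (-0.32 to 0.19) with it, so the blocked interval spans 0.803 to 1.14 times the WT level. Library 3 was the lowest of its group in both groups.

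Luzp1 (chr4:136469761-136554780, plus strand), which encodes a leucine zipper protein of actin filaments and the base of the primary cilium, meets Kdm1a end to end. Their spans overlap by 4241 bases on opposite strands, and the counts were made by strand. Luzp1 had 68.4, 56.9 and 68.6 CPM in Ephb2-KO libraries 1, 2 and 3, against 76.0, 61.2 and 56.9 CPM in WT libraries 1, 2 and 3. Pairs 1 and 2 were lower and pair 3 higher in the Ephb2-KO library, and the blocked log2 fold change was 0.0026 (95% interval -0.28 to 0.29). Htr1d, which encodes a serotonin receptor that couples to inhibitory G proteins, was far lower, with 1.89, 3.06 and 1.62 CPM in Ephb2-KO libraries 1, 2 and 3, against 1.04, 3.53 and 1.32 CPM in WT libraries 1, 2 and 3. Its log2 differences of 0.81, -0.20 and 0.28 in pairs 1, 2 and 3 do not share a sign, and the blocked value was 0.30 (SE 0.34, adjusted p = 0.861).

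On the higher side, the nearest gene names are C1qb, C1qc and C1qa, which encode the chains of complement C1q and are made mainly by macrophages. They lie 44.1, 53.8 and 59.9 kb from Ephb2 and held 0 counts in all 6 libraries, which allows up to 3 counts, or 0.0803 to 0.147 CPM depending on the library (counting error only). Epha8 (chr4:136929419-136956816, minus strand, 93.4 kb away), a receptor of the same Eph family that binds A-type ephrins, was the nearest one tested. It had 5.41, 2.43 and 1.67 CPM in Ephb2-KO libraries 1, 2 and 3, against 3.99, 4.82 and 1.53 CPM in WT libraries 1, 2 and 3. The pairs went apart, with log2 differences of 0.43, -0.97 and 0.12 in pairs 1, 2 and 3, and the blocked log2 fold change was -0.13 (95% interval -0.86 to 0.59). With 589 counts in all, Epha8 is among the less precisely measured neighbours.

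Beyond it lies Zbtb40, a gene for a zinc finger protein with a BTB domain. Zbtb40 had 23.6, 13.6 and 11.3 CPM in Ephb2-KO libraries 1, 2 and 3, against 18.6, 19.5 and 11.5 CPM in WT libraries 1, 2 and 3. The Ephb2-KO library was higher in pair 1, lower in pair 2 and nearly level in pair 3, with log2 differences of 0.34, -0.52 and -0.02. Next among the tested genes is Cdc42 (chr4:137319696-137357720, minus strand, 483.7 kb away), the small GTPase that sets cell polarity and actin protrusion and a known relay of Eph receptor signals. Its counts were among the highest of the window, at 459, 555 and 568 CPM in Ephb2-KO libraries 1, 2 and 3, against 424, 521 and 657 CPM in WT libraries 1, 2 and 3. The blocked log2 fold change was -0.0010 (95% interval -0.27 to 0.26), or between 0.832 and 1.2 times the WT level.

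The transcription and RNA genes of the window held 2 of the 3 genes under an unadjusted p of 0.05 with the block, Tcea3 and Tceb3, and several with values near 0. The list of 11 genes for transcription, RNA and protein synthesis (10 neighbours and Grhl3, which lies outside the window) had 0 members called in either fit, with 5 above and 6 below 0 and a median log2 fold change of -0.06 with the block. Tcea3 (chr4:136247729-136274898, plus strand, 372.6 kb below Ephb2) encodes a tissue-restricted form of the elongation factor TFIIS, which restarts stalled RNA polymerase II. Tcea3 had 7.47, 4.95 and 16.3 CPM in Ephb2-KO libraries 1, 2 and 3, against 3.83, 3.61 and 12.0 CPM in WT libraries 1, 2 and 3. Each Ephb2-KO library was above the WT library of its number, while the group ranges overlapped because library 3 was high in both groups. The means were 9.58 ± 5.96 CPM in Ephb2-KO lines and 6.47 ± 4.76 CPM in WT lines (SD, n = 3 each). With the block, the log2 fold change was 0.62 (SE 0.21, edgeR adjusted p = 0.741), and without it 0.57 (SE 0.65, adjusted p = 1.0). Without Ephb2-KO library 3 the value without the block was -0.06, and without WT library 3 it was 1.37.

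Tceb3 (named Eloa in newer annotation; chr4:136003368-136021763, minus strand, 625.8 kb away) encodes elongin A, the large subunit of the elongin complex that speeds RNA polymerase II. It had 50.5, 29.1 and 59.0 CPM in Ephb2-KO libraries 1, 2 and 3, against 36.0, 25.6 and 50.9 CPM in WT libraries 1, 2 and 3. The log2 differences of 0.49, 0.19 and 0.21 in pairs 1, 2 and 3 were all above 0, though the group ranges overlapped. The blocked log2 fold change was 0.30 (SE 0.13, adjusted p = 0.741), against 0.30 (SE 0.36) without the block.

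E2f2, which encodes an E2F transcription factor of the cell cycle, had 3.38, 2.88 and 2.55 CPM in Ephb2-KO libraries 1, 2 and 3, against 3.19, 2.86 and 1.2 CPM in WT libraries 1, 2 and 3. Pairs 1 and 2 were nearly level and pair 3 gave a log2 difference of 1.05, so its blocked value of 0.36 (SE 0.32) rests mostly on library 3. Zfp46, a zinc finger gene, was at 23.6 ± 2.72 CPM in Ephb2-KO lines and 20.1 ± 2.36 CPM in WT lines (SD, n = 3 each), with log2 differences of 0.50, -0.09 and 0.28.

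Several highly expressed genes of this kind were below 0, and Pnrc2 had the lowest value of these. Pnrc2, whose product takes part in mRNA decay, had 49.1, 37.1 and 107 CPM in Ephb2-KO libraries 1, 2 and 3, against 71.0, 34.6 and 126 CPM in WT libraries 1, 2 and 3. Its blocked log2 fold change of -0.23 (SE 0.14, adjusted p = 0.763) was below 0, and pair 2 was slightly above 0. Rpl11, the gene of a large ribosomal subunit protein that also binds Mdm2, had 265, 409.8 and 514 CPM in Ephb2-KO libraries 1, 2 and 3, against 329, 337 and 584 CPM in WT libraries 1, 2 and 3. Its log2 differences of -0.31, 0.28 and -0.19 changed sign between pairs, and its blocked value was -0.07 (SE 0.14). Of 14 other genes for large-subunit proteins, all tested, 0 were called. With the block 4 were above and 10 below 0, with a median of -0.03, while 53.0% of all tested genes were above 0. The splicing factor gene Srsf10 and the RNA-binding protein gene Hnrnpr had blocked log2 fold changes of -0.10 (SE 0.12) and -0.10 (SE 0.11).

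Among the signalling genes, Asap3 had similar differences in all 3 pairs. Of the 8 genes on the list of signalling and cytoskeleton genes, 6 were tested and 0 called, with 4 above and 2 below 0 and a blocked median of 0.15. Asap3 (chr4:136206365-136245216, plus strand, 402.3 kb away) encodes a GTPase-activating protein for Arf GTPases at focal adhesions and is the direct upstream neighbour of Tcea3. Asap3 had 12.7, 4.91 and 13.2 CPM in Ephb2-KO libraries 1, 2 and 3, against 9.24, 3.37 and 10.1 CPM in WT libraries 1, 2 and 3. The log2 differences were 0.45, 0.53 and 0.39 in pairs 1, 2 and 3, the narrowest spread among the 3 genes under an unadjusted p of 0.05. The blocked log2 fold change was 0.46 (SE 0.19, adjusted p = 0.741), or 1.37 times the WT level with an interval from 1.03 to 1.83. Without the block it was 0.44 (SE 0.56, adjusted p = 1.0), and library 2 of each group lay far below libraries 1 and 3.

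Leaving out a pair or a library moved these values. The blocked log2 fold change of Asap3 was 0.46, 0.42 and 0.50 without pair 1, pair 2 and pair 3, and that of Tcea3 was 0.45, 0.70 and 0.72. For Tceb3 it was 0.20, 0.35 and 0.34. The unadjusted p of the same edgeR fits was 0.0468, 0.0912 and 0.123 for Asap3 and 0.0425, 0.0202 and 0.0545 for Tcea3. For Tceb3 it was 0.214, 0.0365 and 0.119, so each of the 3 genes was above 0.05 in at least 1 of these fits. The same edgeR fits were read for Hspg2, Alpl, Rap1gap and Pnrc2. Without pair 2, Hspg2 was at 0.36 (unadjusted p = 0.0119) and Pnrc2, downward, at -0.38 (unadjusted p = 0.0140). Both were above 0.05 without pair 1 and without pair 3, and Alpl and Rap1gap were above it in all 3 fits. Leaving out single libraries without the block gave 0.088 to 0.78 for Asap3 and 0.087 to 0.59 for Tceb3, lowest without WT library 2 for Asap3 and without Ephb2-KO library 3 for Tceb3. The stromal marker sum named above was higher in the Ephb2-KO library of the same 3 pairs. With the block, 9 of its 10 markers were above 0 (0 called), beside 53.0% of all tested genes. The part of stromal RNA in the values of Tcea3, Asap3 and Tceb3 was not tested.

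Rap1gap, whose product switches off the GTPase Rap1, had 7.95, 3.24 and 3.49 CPM in Ephb2-KO libraries 1, 2 and 3, against 4.95, 3.49 and 2.60 CPM in WT libraries 1, 2 and 3. The Ephb2-KO library was higher in pairs 1 and 3 and lower in pair 2. Inside its span lies the antisense transcript Rap1gapos, sharing 9628 bases with it on the other strand, with 1.55, 1.08 and 0.638 CPM in Ephb2-KO libraries 1, 2 and 3, against 0.643, 0.666 and 0.825 CPM in WT libraries 1, 2 and 3. Its log2 fold change without the block, 0.63 (SE 0.48), was the largest in size among tested neighbours, and pair 3 went against pairs 1 and 2. Counts this low leave the blocked interval wide, from -0.41 to 1.59.

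Wnt4 (chr4:137277489-137299726, plus strand, 441.5 kb away), a secreted ligand of the gonad and kidney, was the only neighbour whose Ephb2-KO values all lay above its WT values. It had 12, 8 and 9 counts in Ephb2-KO libraries 1, 2 and 3, against 3, 3 and 7 counts in WT libraries 1, 2 and 3. In CPM these were 0.338, 0.360 and 0.442 in the Ephb2-KO libraries, against 0.0803, 0.118 and 0.289 in the WT libraries. Separate ranges upward were found for 1 of 35 neighbours (2.86%) and 1.07% of all genes with 20 or more counts, and separate ranges downward for 0 of 35 and 1.98%. Wnt4 had too few counts for the main test, and its WT counts alone would not have met the minimum for membership. In the fit with no filter its log2 fold change was 1.23 (SE 0.75, adjusted p = 1.0). Of 16 other Wnt ligand genes, 9 were tested, 0 were called, and 8 were above and 1 below 0 with the block. Of 16 effectors and regulators of Cdc42, all tested, 0 were called, 15 were above and 1 below 0, with a median of 0.20. Beside these 2 lists, 53.0% of all tested genes were above 0 with the block. The stromal marker sum was 1.58, 1.27 and 1.18 times as high in the Ephb2-KO library of pairs 1, 2 and 3 (9 of 10 markers above 0). Together the 16 genes of the Cdc42 list held 1301, 1440 and 1433 CPM in Ephb2-KO libraries 1, 2 and 3. In WT libraries 1, 2 and 3 they held 1104, 1411 and 1195 CPM. Cdc42ep2 was highest in library 3 of both groups, where the stromal sum was also highest, while Cdc42bpa, Cdc42bpb and Fgd1 were lowest there. These genes were named after their values were seen. The part of stromal RNA in the Wnt and Cdc42 lists was not tested.

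**Figure D2:**
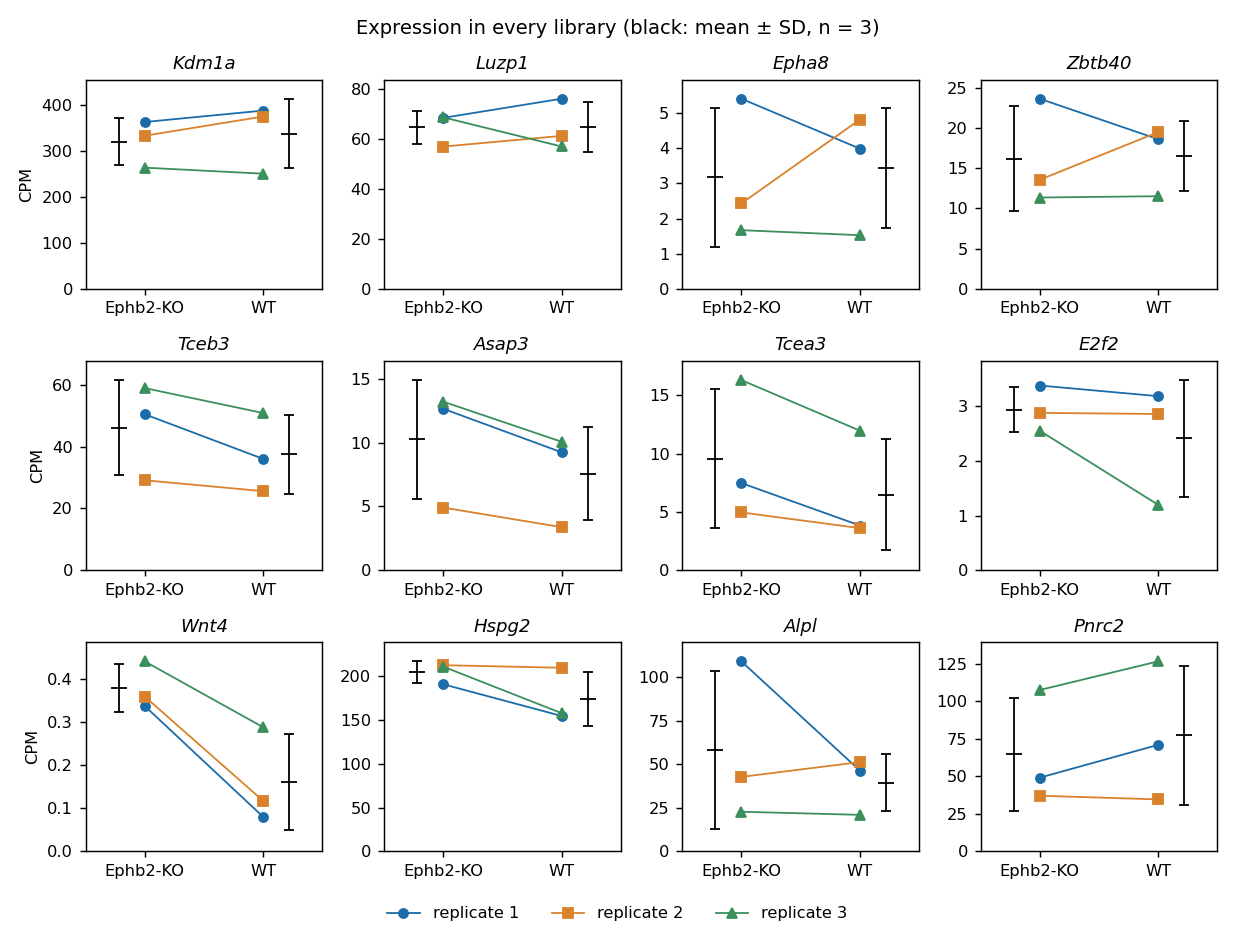
CPM of 12 neighbours in each library (y axes from 0, linear), with Ephb2-KO left and WT right, lines joining libraries of the same replicate number, and black bars giving mean ± SD (n = 3). Tceb3, Asap3 and Tcea3 slope down from Ephb2-KO to WT in every pair but overlap between groups, and Wnt4 alone does not overlap.

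Of Tcea3, Asap3, Tceb3, Wnt4 and Kdm1a, the first 3 had the smallest p with the block and Wnt4 had separate ranges. Kdm1a was the tested neighbour closest to Ephb2, and the start regions of these genes are printed. Each runs from 250 bases before to 50 bases after the RefSeq start (GRCm38.p6), 5′ to 3′ on the gene's own strand, with chr4:136247707-136248006 (plus) for Tcea3, chr4:136206115-136206414 (plus) for Asap3, chr4:136021600-136021899 (minus) for Tceb3, chr4:137277385-137277684 (plus) for Wnt4 and chr4:136602674-136602973 (minus) for Kdm1a. Capitals mark matches on either strand to 6 motifs. These were TATAAA, the letters of the TATA box, then CCAAT, read by NF-Y, and GGGCGG, the GC box read by Sp1. Also searched were CACGTG, the E-box of Myc and Usf proteins, CCGGAAG, an Ets motif, and finally AAGATGGC, a Yy1 motif. Copies of GGGCGG can overlap each other.
Tcea3: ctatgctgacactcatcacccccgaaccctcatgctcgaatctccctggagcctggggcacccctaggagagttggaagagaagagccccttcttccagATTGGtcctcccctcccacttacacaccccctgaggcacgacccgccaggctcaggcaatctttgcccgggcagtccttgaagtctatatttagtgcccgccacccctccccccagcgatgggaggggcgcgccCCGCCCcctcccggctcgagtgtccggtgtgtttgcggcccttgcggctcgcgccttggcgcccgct
Asap3: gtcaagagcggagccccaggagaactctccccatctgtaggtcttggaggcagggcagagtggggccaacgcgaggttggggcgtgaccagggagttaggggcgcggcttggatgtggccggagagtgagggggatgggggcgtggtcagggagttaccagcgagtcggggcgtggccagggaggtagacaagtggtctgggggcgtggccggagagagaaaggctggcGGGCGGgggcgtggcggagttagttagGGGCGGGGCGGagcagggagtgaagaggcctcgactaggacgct
Tceb3: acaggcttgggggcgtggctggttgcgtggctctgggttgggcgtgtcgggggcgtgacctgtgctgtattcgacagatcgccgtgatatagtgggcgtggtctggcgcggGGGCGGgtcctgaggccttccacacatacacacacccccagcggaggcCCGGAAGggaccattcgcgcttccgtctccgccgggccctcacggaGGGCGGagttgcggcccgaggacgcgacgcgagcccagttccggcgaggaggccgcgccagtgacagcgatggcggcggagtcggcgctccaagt
Wnt4: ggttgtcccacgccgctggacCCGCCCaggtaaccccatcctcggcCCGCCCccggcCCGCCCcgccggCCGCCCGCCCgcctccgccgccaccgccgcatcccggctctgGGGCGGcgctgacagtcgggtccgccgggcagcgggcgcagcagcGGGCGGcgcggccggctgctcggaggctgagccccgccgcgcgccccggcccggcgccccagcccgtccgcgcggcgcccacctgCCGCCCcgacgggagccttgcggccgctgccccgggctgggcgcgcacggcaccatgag
Kdm1a: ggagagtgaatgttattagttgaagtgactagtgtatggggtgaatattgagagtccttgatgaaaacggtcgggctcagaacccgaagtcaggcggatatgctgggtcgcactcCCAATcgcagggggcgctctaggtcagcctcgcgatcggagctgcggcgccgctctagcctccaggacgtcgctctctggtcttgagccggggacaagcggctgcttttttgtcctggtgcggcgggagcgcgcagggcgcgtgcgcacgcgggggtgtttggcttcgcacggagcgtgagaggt

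Tcea3, Asap3, Tceb3 and Wnt4 each hold GGGCGG, Tcea3 and Kdm1a hold CCAAT, and Tceb3 holds CCGGAAG. Of the 35 neighbours, 26 matched a RefSeq start region. Among these, GGGCGG was in 61.5%, against 35.7% of all 32851 start regions of the same length, and CCGGAAG in 19.2% against 8.86%. CCAAT was in 34.6% against 37.4%, CACGTG in 7.69% against 7.15%, TATAAA in 7.69% against 13.6%, and AAGATGGC in 0% against 2.75%. The neighbours' start regions had a median GC content of 64.7%, against 52.7% over all, and a median of 21.5 CpG dinucleotides, against 7. Tcea3, Asap3, Tceb3, Wnt4 and Kdm1a had 65.3%, 67.7%, 70.0%, 84.3% and 61.3% GC. These matches describe letters in a window and bear on no factor.

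Among the enzyme genes, Alpl had 1 library far from the others. Alpl (chr4:137741733-137796384, minus strand, 905.7 kb away) encodes tissue-nonspecific alkaline phosphatase, long used as a marker of germline and pluripotent cells. Alpl had 109, 42.9 and 22.8 CPM in Ephb2-KO libraries 1, 2 and 3, against 46.5, 51.4 and 21.0 CPM in WT libraries 1, 2 and 3. Ephb2-KO library 1 was above the other 5, and the log2 differences of 1.23, -0.26 and 0.12 in pairs 1, 2 and 3 do not share a sign. The log2 fold change was 0.56 (SE 0.60) without the block and 0.37 (SE 0.29) with it, and leaving out pair 1 took the blocked value to -0.08.

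Lypla2, which encodes a thioesterase that strips palmitate from proteins, had 76.5, 87.5 and 46.7 CPM in Ephb2-KO libraries 1, 2 and 3, against 57.3, 87.4 and 41.0 CPM in WT libraries 1, 2 and 3. It was higher in 3 of 3 pairs, though in pair 2 by a log2 difference of only 0.00084, and its blocked value was 0.20 (SE 0.13, adjusted p = 0.769). Other enzyme genes had blocked log2 fold changes on both sides of 0. Fuca1, the lysosomal fucosidase, was at 0.01 (SE 0.11), and the deubiquitinase gene Usp48 at 0.03 (SE 0.11). Pithd1 was at -0.11 (SE 0.16). Cela3b, an elastase gene of the pancreas, had only 0.620, 0.180 and 0.442 CPM in Ephb2-KO libraries 1, 2 and 3, against 0.750, 0.118 and 0.784 CPM in WT libraries 1, 2 and 3. Its blocked value of -0.32 (SE 0.52) was the lowest of the 31, with a 95% interval from -1.46 to 0.82. Of the 11 enzymes listed, including Ece1 just outside the window, 9 were tested and 0 called, with 6 above and 3 below 0.

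Matrix and muscle were represented by 1 gene each. Hspg2 (chr4:137468769-137570630, plus strand, 632.8 kb away) encodes perlecan, a heparan sulfate proteoglycan of basement membranes. Hspg2 had 191, 212 and 211 CPM in Ephb2-KO libraries 1, 2 and 3, against 155, 209 and 158 CPM in WT libraries 1, 2 and 3. The means were 205 ± 12.1 and 174 ± 30.8 CPM in the Ephb2-KO and WT lines (SD, n = 3 each), pair 2 was nearly level, and the 2 groups overlapped only through WT library 2. Its blocked log2 fold change was 0.25 (SE 0.12, adjusted p = 0.741), and its sign was the same in every setting tried. Of 12 matrix genes elsewhere in the genome, all tested, 0 were called in either fit. With the block 11 were above and 1 below 0, with a median of 0.30, and 6 were higher in 3 of 3 pairs. Of all tested genes, 53.0% were above 0 with the block and 15.6% were higher in 3 of 3 pairs. The stromal marker sum was higher in the same pairs (1.58, 1.27 and 1.18 times), and its part in the value of Hspg2 was not tested. Myom3, a myomesin gene of the sarcomere, had 1.30, 0.135 and 0.589 CPM in Ephb2-KO libraries 1, 2 and 3, against 0.643, 0.313 and 0.784 CPM in WT libraries 1, 2 and 3, and its log2 differences of 0.94, -0.89 and -0.37 do not share a sign.

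Immune genes of the window were nearly silent apart from Ifnlr1, the receptor chain for type III interferons. Ifnlr1 had 12.9, 5.90 and 7.02 CPM in Ephb2-KO libraries 1, 2 and 3, against 12.5, 6.03 and 7.55 CPM in WT libraries 1, 2 and 3. Libraries of the same number were close, and the blocked log2 fold change was -0.03 (SE 0.19). Its neighbour Il22ra1 had 2 counts in all, and C1qa, C1qb and C1qc had 0. Summed macrophage markers were low as well, at 7.50 to 17.5 CPM in the Ephb2-KO libraries and 7.87 to 21.3 CPM in the WT libraries. Of 7 partners of C1q in the complement system, all tested, 0 were called. With the block 7 of these partners were above 0, beside 53.0% of all tested genes, and their median was 0.25. Among them, C1ra, named after its values were seen, had 9.19, 5.36 and 91.3 CPM in Ephb2-KO libraries 1, 2 and 3, against 7.74, 4.82 and 73.3 CPM in WT libraries 1, 2 and 3. It was highest in library 3 of both groups, where the stromal marker sum was also highest. C3 of the same list was highest in Ephb2-KO library 1 and in WT library 3. The stromal marker sum was 1.58, 1.27 and 1.18 times as high in the Ephb2-KO library of pairs 1, 2 and 3 (9 of 10 markers above 0). The part of stromal RNA in this list was not tested.

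The other neighbours are noncoding or scarcely expressed. By the GENCODE vM21 annotation, 29 of the 35 are protein-coding, 3 are processed pseudogenes, 1 is a lincRNA, 1 is antisense and Gm17388 has no class there. The pseudogenes Gm12989 and Gm12988 and the lincRNA RP23-246F18.8 had blocked log2 fold changes of -0.11 (SE 0.47), -0.11 (SE 0.47) and 0.19 (SE 0.48), all under 1 CPM on average in both groups. Reads that fit a pseudogene and its parent gene equally well can be lost or misplaced, so their values are uncertain. Gm17388, 6030445D17Rik and the pseudogene Rpl31-ps10 were, with Wnt4, the 4 neighbours below the filter for testing. Gm17388 had 13, 3 and 2 counts in Ephb2-KO libraries 1, 2 and 3, against 14, 9 and 6 in WT libraries 1, 2 and 3. For 6030445D17Rik these were 24, 4 and 4 counts in Ephb2-KO, against 10, 6 and 7 in WT libraries. For Rpl31-ps10 they were 4, 5 and 7 in Ephb2-KO, against 9, 2 and 10 in WT libraries.

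A further 34 gene names of the window fell short of 20 counts. No count at all was found for 22, and 11 had 1 to 5. Just outside the minimum was 9130020K20Rik with 19 counts, and just inside were Rpl31-ps10 with 37, Wnt4 with 42 and Gm17388 with 47. The nearest genes with enough counts beyond the window were 1700029M20Rik, 1017.3 kb below Ephb2 with 20 counts, and Ece1, 1026.2 kb above it with 21733.

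Along the chromosome, signed differences and their sizes were read separately. Within 250 kb of Ephb2, the 5 tested neighbours had a median blocked log2 fold change of -0.06. The 6 at 250 to 500 kb had 0.30, the 10 at 500 to 750 kb had 0.05 and the 10 at 750 to 1000 kb had -0.00092. Ignoring the sign, the medians of the same 4 bins were 0.064, 0.30, 0.16 and 0.11, so the bin next to Ephb2 had the smallest. That does not mean level pairs, because the pairs of this bin differed in direction. Its median log2 differences were 0.34, -0.20 and 0.12 in pairs 1, 2 and 3, and 0 of its 5 genes were above 0 in pair 2. The median range of the 3 pair differences of a gene was 0.87 in this bin. It was 0.42, 0.42 and 0.50 in the farther bins and 0.50 over all tested genes. Across the 31 neighbours, Pearson's r between distance and signed log2 fold change was 0.0061 and Spearman's rho -0.031, as a description, since the genes share libraries. The 21 tested neighbours below Ephb2 had a median of 0.0026 and the 10 above it 0.11. In chromosome order the signs came in runs of 1 to 5 genes. E2f2, Asap3, Tcea3 and Zfp46 were all above 0 (0.23 to 0.62), and so were Hspg2, Usp48, Rap1gap, Rap1gapos and Alpl (0.03 to 0.59), while Kdm1a, Epha8, Zbtb40 and Cdc42 around Ephb2 were below it (-0.13 to -0.0010). No pair of neighbours had start sites within 1 kb of each other on opposite strands. Id3, left out of the list though it lies between Rpl11 and E2f2, had 47.4, 25.5 and 109 CPM in Ephb2-KO libraries 1, 2 and 3, against 47.7, 19.2 and 105 CPM in WT libraries 1, 2 and 3, with a blocked log2 fold change of 0.14 (SE 0.13).

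**Figure D3:**
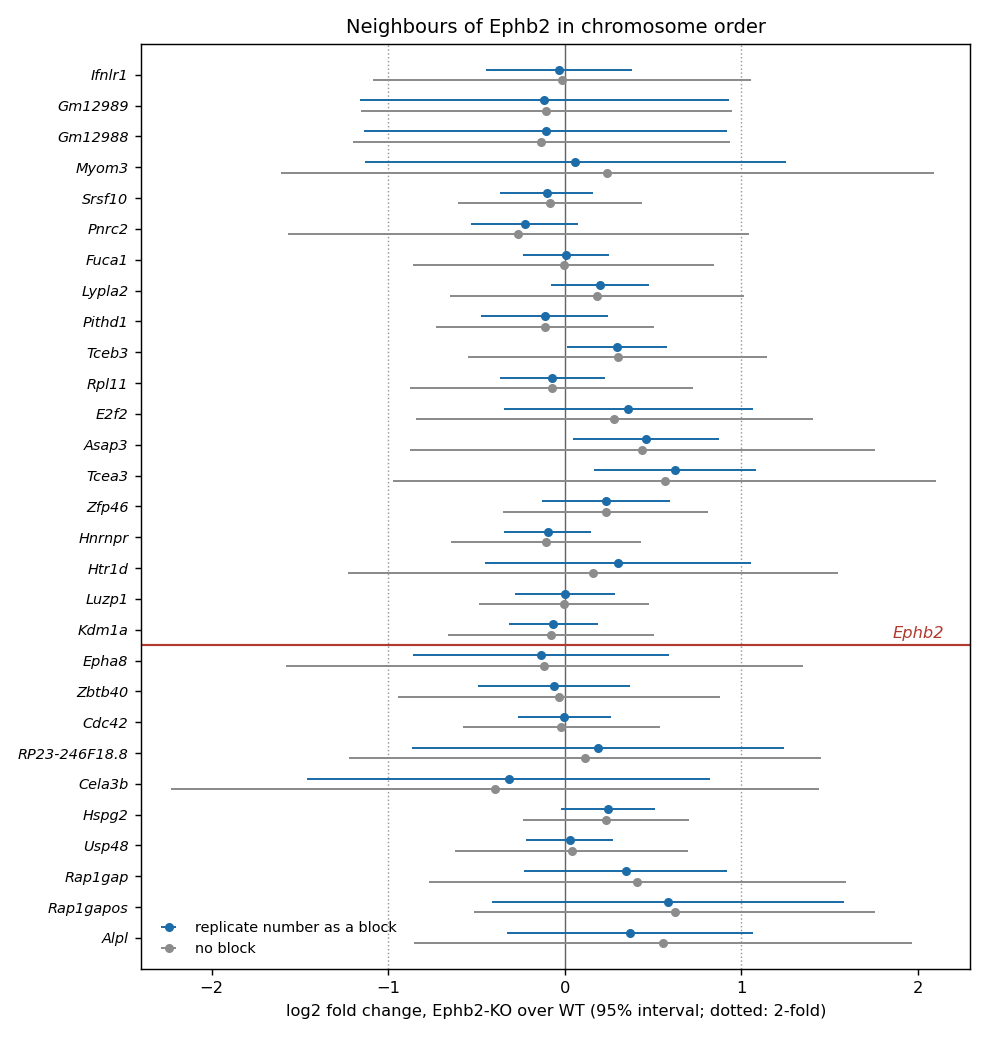
log2 fold change of Ephb2-KO over WT (x axis) with its 95% interval for 29 of the 31 tested neighbours in chromosome order (y axis, lowest coordinate at the top), with the replicate block in blue and without it in grey. The red line marks the place of Ephb2 and dotted lines a 2-fold change. Of the blue intervals, only those of Tceb3, Asap3 and Tcea3 leave out 0, before any adjustment.

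For most tested neighbours, the unadjusted intervals bound how much lower the mean of the lines labelled Ephb2-KO could be. They do not bound a change in a single line. The blocked 95% interval lay wholly above 0.5 times the WT level for 27 of the 31 (87.1%, beside 88.6% of all tested genes), and without the block for 21 (67.7%, beside 60.8%). The other 4 were Gm12989, Gm12988, Myom3 and Cela3b, all under 1 CPM on average in both groups. Within a 2-fold change both ways lay 21 of the blocked intervals (67.7%, beside 80.3% of all tested genes), and within 1.5-fold 17 (54.8%, beside 55.9%).

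For most neighbours, the range between replicate numbers was larger than the mean difference between groups. The means of the 3 pairs had a median range of 0.89 on the log2 scale among tested neighbours. That range was larger than the size of the mean of the 3 pair differences for 29 of 31 (93.5%, beside 94.5% of all tested genes). A range and a mean are unlike measures, so this is a description only. The largest ranges belonged to Myom3 (1.81), Cela3b (1.78), Tcea3 (1.71), Pnrc2 (1.70) and Alpl (1.70). Pnrc2, Fuca1 and Tcea3 were highest in library 3 of both groups, whereas Alpl, Epha8 and Zbtb40 were lowest there. The median SE of a log2 fold change was 0.17 with the block and 0.45 without it. Library 3 of both groups was also the pair at passage 18 and the pair with the most stromal marker RNA, and these cannot be told apart.

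**Figure D4:**
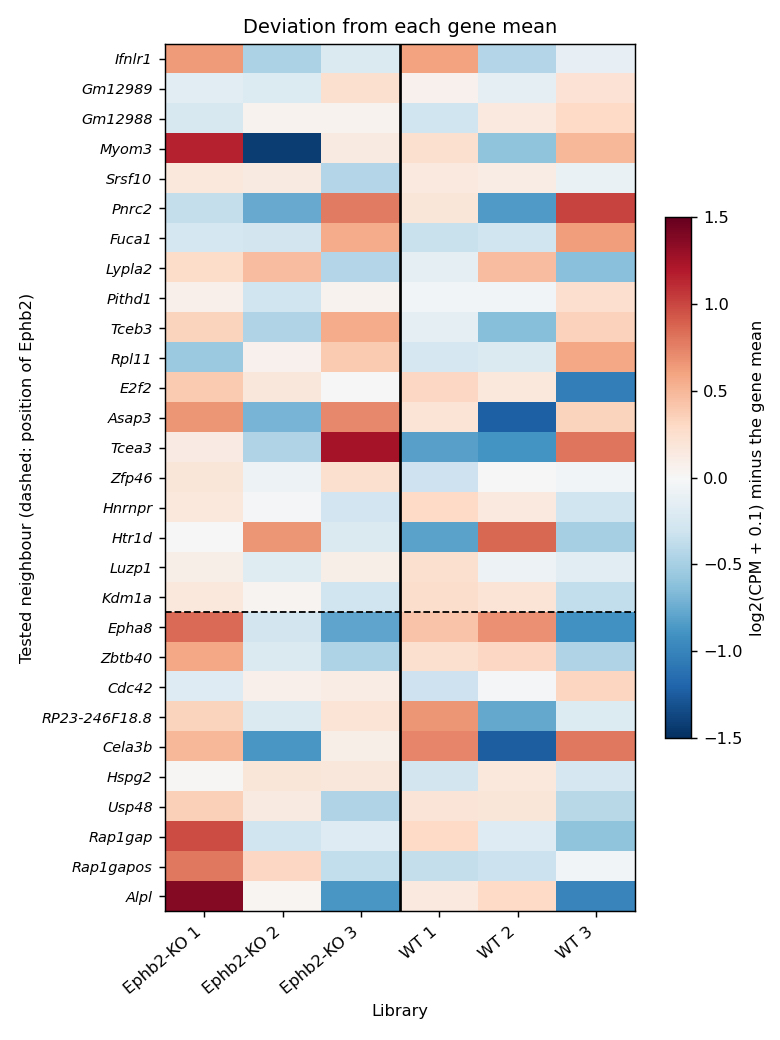
Deviation of log2(CPM + 0.1) from each gene's mean over the 6 libraries (colour, red above and blue below) for 29 of the 31 tested neighbours in chromosome order (rows), with Ephb2-KO libraries left and WT libraries right of the black line and the dashed line at the position of Ephb2. Libraries of the same number share colours across the line, as for Alpl and Pnrc2 in library 3.

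Levels per length ran from the abundant Cdc42 to the scarce Wnt4. By TPM (counts per summed exon length, scaled to the same total in each library), Cdc42 led with 474 ± 39.2 over the 6 libraries (SD), followed by Rpl11 with 395 ± 83.6, whose range overlapped it. Kdm1a came next with 173 ± 47.9 and did not overlap Rpl11, and Lypla2 (87.0 ± 29.8), Pnrc2 (84.3 ± 40.6) and Fuca1 (78.6 ± 21.0) followed with ranges that overlapped each other. In all, 3 neighbours were above 100 TPM, 15 between 10 and 100, 12 between 1 and 10, and 5 below 1, with Wnt4 the lowest at 0.169 ± 0.0846. Together the 35 neighbours took 0.248%, 0.226% and 0.229% of all counts in Ephb2-KO libraries 1, 2 and 3, against 0.245%, 0.226% and 0.249% in WT libraries 1, 2 and 3.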

How the data were processed

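The authors deposited whole-number read counts for every gene name, beside its summed length of exons. Per the file headers, reads were counted with featureCounts 1.4.6-p4 by gene name over GENCODE vM3 exons with strand setting 2 (reversely stranded), without counting multi-mapping reads. The build was GRCm38.p3, per the submitters' processing notes. Every count belonged to a named gene (0 rows named none), and 0 columns came from another series.

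The test was edgeR 4.0.16 (R 4.3.3, limma 3.58.1) on these counts: filterByExpr, TMM scaling, robust glmQLFit and glmQLFTest over 15263 genes with no covariate, and Benjamini-Hochberg adjustment at 0.05. DESeq2 1.42.0 was an alternative. The script was tested on simulated data in which 200 genes were changed. The fit without the block recovered 0% of 2-fold and 0% of 4-fold changes. The blocked fit recovered 88% and 100%, and 27 of its 215 calls were false, a larger share than the threshold of 0.05. The simulated counts were drawn from the means and dispersions of the blocked fit, so the pairing was built in. Changes were placed only in genes above a minimum mean CPM with counts in every library. The recovery therefore says nothing about the scarcer neighbours. CPM used TMM-scaled library sizes, log2 CPM a prior count of 2, and TPM the deposited lengths. The standard error is the log2 fold change over the square root of F. Floors of 3 counts and intervals at 95% cover counting error and the spread between these lines only.

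Same-number libraries deviated together from their group means (r = 0.596, 0.736 and 0.850, each above the bound of 0.1), so the numbers in the sample titles pair the libraries, and blocked values are given beside the others. Between lines, the biological coefficient of variation came to 0.166 in the blocked fit and 0.440 in the other. No library was a duplicate of another (chi-square per degree of freedom 20.5 to 284).

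The members and lists were chosen with earlier results of these data known. The rule gave library values for the 3 nearest tested neighbours on each side, those under an unadjusted p of 0.05, and the 5 with the largest change, level or spread between pairs. Library values of the others were chosen after they were seen. The guide sequence and a genome were not used here, and the values of a few neighbours are not reported here, though counts over the neighbours include them.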

Additional observations from a re-analysis of the deposited data

How the results depend on the processing

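Across the 19 alternatives, 0 neighbours were called in each, the lowest adjusted p of any neighbour being 0.237, and the neighbours' median log2 fold change ran from -0.045 to 0.080. Single libraries left out gave medians of -0.033 to 0.080, with 0.080 without Ephb2-KO replicate 3. Genes called over all tested genes were 0 without the block, so that count of neighbours says nothing about stability, 4 with the replicate block and 3 with DESeq2. With the replicate block and pair 1, 2 or 3 left out they were 56, 3 and 4, and the cause was not tested. The block changed no call of a neighbour. With all libraries, 3 neighbours changed sign, all near 0: Fuca1 (0.0045 with DESeq2, 0.0011 with RLE scaling factors, 0.010 with the replicate block), Luzp1 (0.011, 0.0071 and 0.0026, and 0.0041 with no filter on low counts) and Ifnlr1 (0.00064 with no filter). In all, 25 neighbours changed sign in some alternative and 6 in none (Asap3, Cela3b, Hspg2, Rap1gapos, Tceb3 and Zfp46). With the replicate block, values of changed sign included, without pair 1, Myom3 -0.66, Rpl11 0.047, Luzp1 0.083, Usp48 -0.037 and Alpl -0.080. Without pair 2 they were Fuca1 0.0019, Luzp1 0.056, Epha8 0.30 and Zbtb40 0.17, and without pair 3 Ifnlr1 0.0060, Srsf10 0.019, Fuca1 0.049 and Cdc42 0.11. Leaving out single libraries without the block gave ranges that crossed 0 for, among others, Ifnlr1 (-0.43 to 0.34), Gm12989 (-0.28 to 0.0010), Gm12988 (-0.32 to 0.022), Myom3 (-0.69 to 0.71), Srsf10 (-0.18 to 0.089), Pnrc2 (-0.84 to 0.29), Fuca1 (-0.34 to 0.38), Lypla2 (-0.041 to 0.52), Pithd1 (-0.18 to 0.0020), Rpl11 (-0.30 to 0.25), E2f2 (-0.037 to 0.53), Tcea3 (-0.055 to 1.37), Hnrnpr (-0.26 to 0.023), Htr1d (-0.16 to 0.89), Luzp1 (-0.083 to 0.13), Kdm1a (-0.25 to 0.044), Epha8 (-0.75 to 0.20), Zbtb40 (-0.41 to 0.17), Cdc42 (-0.16 to 0.16), RP23-246F18.8 (-0.20 to 0.71), Usp48 (-0.14 to 0.24), Rap1gap (-0.13 to 0.69) and Alpl (-0.27 to 0.94). Depth kept 4 of the 35 neighbours from being tested.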
